A study of Mus musculus with 6 samples.

Results

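The genes described here form the receiving side of the Hedgehog pathway, without its ligand: the receptor gene *Ptch1*, the signal transducer gene *Smo*, the co-receptor genes *Cdon*, *Boc* and *Gas1*, the genes *Hhip* and *Sufu* that encode inhibitors, and the 3 transcription factor genes *Gli1*, *Gli2* and *Gli3*. They were taken by name, as every probe that the array's annotation assigns to 1 of these 10 symbols. This gave 21 probes of 45281 on the array (10 genes of 19057 with a probe of 1 symbol). Expression was measured in whole embryos from intercrosses of *Zic2* iso/+ parents, collected at E8.0 to E8.5. There were 3 pools of *Zic2* iso/iso embryos and 3 pools of wildtype littermates, each of 8 embryos of matched stage, and each pool was hybridised to 1 Illumina Mouse WG6 v2 array. Both genotypes were on the C3H/HeH background and embryos of both sexes were used. The iso allele came from a chemical mutagenesis screen and puts a premature stop codon into the fifth zinc finger of ZIC2, and it was carried as a single line. None of the 10 genes lies on chromosome 14, which holds *Zic2* and the segment that was mapped with iso.

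In the absence of ligand, the receptor PTCH1 keeps SMO inactive. Binding of Sonic hedgehog to PTCH1, helped by the co-receptors CDON, BOC and GAS1, releases SMO, which then acts at the primary cilium so that GLI2 and GLI3 are no longer held back by SUFU or cut to repressors. *Ptch1*, *Hhip* and *Gli1* are known to be switched on by the signal itself and are widely used to read it, whereas the co-receptor genes are known to be expressed less near the source of the ligand. In the early embryo that source is the node, notochord and prechordal plate, and loss of the signal is a classical cause of holoprosencephaly and of left-right defects. The question put to the data was whether the receiving genes differed between *Zic2* iso/iso and wildtype embryos.

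Intensities were put on a log2 scale and brought to a common distribution by quantile normalization, and every level and difference below is on that scale. Differences are *Zic2* iso/iso minus wildtype, with a 95% confidence interval (CI) and a p-value adjusted over all 45281 probes by the Benjamini-Hochberg method, both from limma. The brightest probe stands for a gene. A level of 7.47, which 95% of 1608 probes for olfactory receptors and similar gene families do not exceed, was taken as the background level. Median intensities before normalization ran from 154 to 187 over the pools, and the normalised arrays were alike (Pearson's r across probes of 0.993 to 0.995, as a description). Levels of different probes are not comparable, since each probe binds its transcript with its own strength, so genes are compared only with themselves between genotypes. In pooled whole embryos, fewer cells that use a gene and less RNA per cell cannot be told apart. Nothing states how the pools were drawn from litters, so the p-values measure only the spread between these pools, and 3 against 3 cannot give an exact two-sided permutation p below 0.1.

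*Zic2* itself was measured in every pool. Its level was 8.27, 8.06 and 8.00 in wildtype pools 1 to 3 and 7.64, 7.57 and 8.01 in *Zic2* iso/iso pools 1 to 3. The pools overlapped, and the difference of −0.37 (95% CI −0.60 to −0.13) had an adjusted p of 0.61 from limma. A second *Zic2* probe, at means of 7.42 in wildtype and 7.54 in mutant pools, had a difference of 0.12 in the other direction (95% CI −0.050 to 0.29). The allele is a point mutation that does not remove the gene, so this does not check the labels. The ligand gene *Shh* stood at 9.73, 9.38 and 9.34 in the wildtype pools and at 8.51, 8.79 and 8.57 in the mutant pools, all mutant pools being lower. It fell by 0.86 on the log2 scale (95% CI −1.08 to −0.63, adjusted p = 0.0075 from limma). A dimmer *Shh* probe, at means of 7.56 in wildtype and 7.37 in mutant pools, was also lower in all mutant pools. Its difference was only −0.19 (95% CI −0.34 to −0.037, adjusted p = 0.74 from limma), and its mutant mean was below background. The call of *Shh* was lost without normalization between arrays and when the probes of a gene were averaged.

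None of the 10 receiving genes passed the test in limma. Over all probes the test called 20, or 0.0442%, and with an unadjusted p under 0.05 it gave 2727, or 6.02%. Among the 10 genes no unadjusted p was under 0.05, the smallest being 0.22 for *Smo*. For none of the 10 genes did the mutant pools lie apart from the wildtype pools, where over all probes 5.46% lay apart with the mutant pools lower and 5.18% with the mutant pools higher. The differences ran from −0.033 (*Gli2*) to 0.11 (*Smo*). They were above 0 in 8 genes and below 0 in 2, with a median of 0.043 against 2.6e-04 over all probes. Of the 8 genes above 0, 4 were at background, and the median was 0.078 over the 6 genes above it. The median was 0.020 without wildtype replicate 3. In single pools, the median deviation of the 10 genes from their genotype means had an SD of 0.049, which is not the error of the median difference. All 10 intervals held 0, and none reached the fall of the brightest *Shh* probe: the lowest bound was −0.22 and the highest 0.33. The lowest bound, that of *Gli2*, did reach past the −0.19 of the dimmer *Shh* probe. Background was exceeded in at least 1 genotype by 6 of the 10 genes (*Ptch1*, *Smo*, *Cdon*, *Sufu*, *Gli2* and *Gli3*). The other 4 (*Gli1*, *Hhip*, *Boc* and *Gas1*) had means below it, so that no change could be read for them, and their narrow intervals are those of a background signal. A probe at background does not show that its gene was silent.

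**Figure D1:**
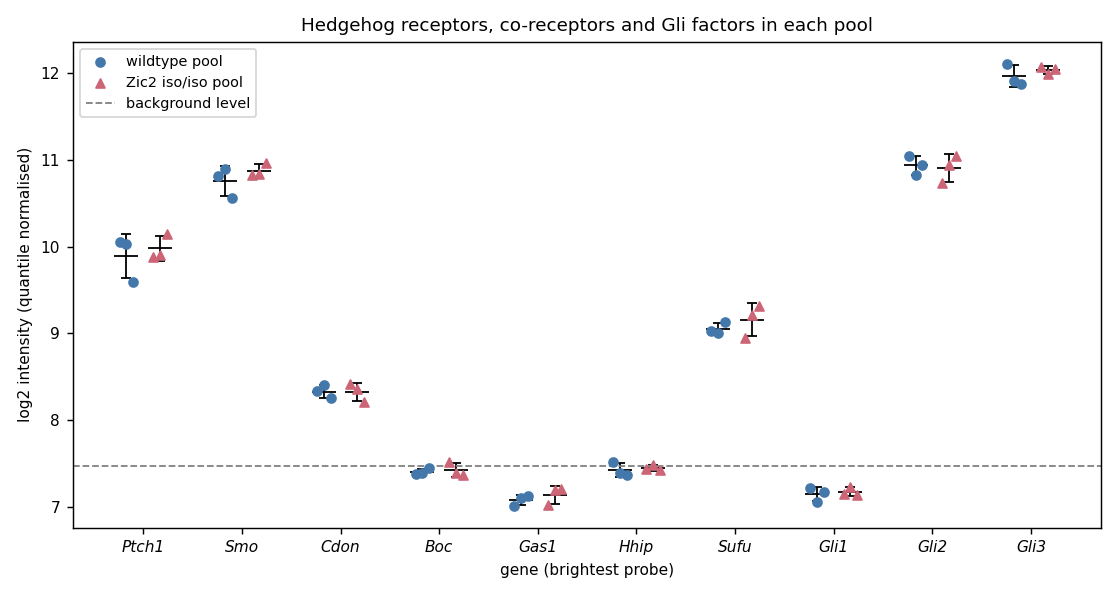
Normalised log2 intensity on the vertical axis, from the brightest probe of each of the 10 genes, in wildtype pools (circles) and Zic2 iso/iso pools (triangles). Horizontal bars are means, error bars give the SD over 3 pools, and a dashed line marks background at 7.47; the genotypes overlap in every gene, and the means of Boc, Gas1, Hhip and Gli1 lie below the line.

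*Ptch1* encodes the receptor that binds the ligand and is itself a target of the signal. Its level was 10.05, 10.03 and 9.60 in wildtype pools 1 to 3 and 9.89, 9.91 and 10.14 in *Zic2* iso/iso pools 1 to 3. Wildtype pool 3 was the lowest of the 6 and mutant pool 3 the highest, and the other 4 pools lay between them. Wildtype pools averaged 9.89 ± 0.26 (SD, n = 3) and mutant pools 9.98 ± 0.14 (SD, n = 3). The difference of 0.085 (standard error 0.11, 95% CI −0.16 to 0.33, adjusted p = 0.97 from limma) corresponds to 1.06-fold, with a CI of 0.894 to 1.26. Its direction rested on 1 pool: without wildtype replicate 3 the difference was −0.064. With the spread of this probe, a difference of 0.74 in either direction would have been needed to pass the test. A dimmer probe of *Ptch1*, at 7.50 and 7.55 in wildtype and mutant pools, sat just above the background level, with a difference of 0.051.

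*Hhip* and *Gli1*, the other genes that the signal is known to switch on, could not be read. *Hhip*, whose product binds and sequesters the ligand at the cell surface, was at 7.52, 7.39 and 7.37 in the wildtype pools. In the mutant pools it was at 7.43, 7.48 and 7.43. The single *Hhip* probe thus ran from 7.37 to 7.52 over the pools, on both sides of the background level. *Gli1*, which encodes an activator of transcription, was at 7.22, 7.06 and 7.17 in the wildtype pools and at 7.15, 7.23 and 7.13 in the mutant pools. Every pool of *Gli1* was below the background level, with fitted differences of 0.026 for *Gli1* and 0.020 for *Hhip*. Of the 3 genes commonly used to read the signal, *Ptch1* was thus the only one measured above background.

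*Smo* encodes the membrane protein that passes the signal into the cell. Its brightest probe stood at 10.82, 10.90 and 10.57 in wildtype pools 1 to 3 and at 10.82, 10.83 and 10.96 in *Zic2* iso/iso pools 1 to 3. As for *Ptch1*, wildtype pool 3 was the lowest and mutant pool 3 the highest. The difference was 0.11 (95% CI −0.076 to 0.30, adjusted p = 0.94 from limma), and 0.015 without wildtype replicate 3. *Smo* has 4 probes, 3 of them above the background level, and all 3 had a small positive difference. The second probe was at 8.20, 8.17 and 8.22 in wildtype and 8.31, 8.39 and 8.35 in mutant pools, a difference of 0.15 (95% CI 0.011 to 0.28, unadjusted p = 0.036 and adjusted p = 0.80 from limma). The third was at 7.89, 7.86 and 7.87 in wildtype and 8.05, 8.01 and 7.94 in mutant pools, a difference of 0.13 (95% CI −0.0078 to 0.27, adjusted p = 0.86 from limma). For both of these probes every mutant pool was above every wildtype pool. The fourth probe, below the background level, was lower in every mutant pool (−0.087). These were the 3 of the 21 probes whose pools lay apart. Over all probes 5.46% lay apart with the mutant pools lower and 5.18% with the mutant pools higher. None of the 21 passed the test.

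The co-receptor genes differ in how far they can be read. *Cdon*, which encodes an immunoglobulin-type cell surface protein, was at 8.33, 8.40 and 8.25 in the wildtype pools and at 8.41, 8.35 and 8.21 in the mutant pools. The values of the 2 genotypes interleaved, and the difference of −0.0023 had a 95% CI of −0.16 to 0.16 (adjusted p = 1.00 from limma). On the linear scale this interval runs from 0.894-fold to 1.12-fold. A dimmer *Cdon* probe did not exceed background in either genotype. *Boc*, a relative of *Cdon*, was at 7.38, 7.39 and 7.45 in wildtype and 7.51, 7.39 and 7.36 in mutant pools by its brighter probe. The other *Boc* probe was lower still, at means of 7.23 and 7.13. *Gas1*, which encodes a lipid-anchored surface protein, was at 7.01, 7.10 and 7.12 in wildtype and 7.02, 7.19 and 7.21 in mutant pools. Neither *Boc* nor *Gas1* had a mean above background in either genotype, with fitted differences of 0.016 and 0.060, so that among the co-receptor genes a statement can be made for *Cdon* alone.

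*Sufu*, whose product holds Gli factors back in the cytoplasm, was at 9.03, 9.00 and 9.13 in wildtype pools 1 to 3 and at 8.95, 9.21 and 9.32 in *Zic2* iso/iso pools 1 to 3. Mutant pool 1 was the lowest of the 6, while mutant pools 2 and 3 were the highest. The difference was 0.11 (95% CI −0.088 to 0.30, adjusted p = 0.95 from limma), and it was 0.21 without *Zic2* iso/iso replicate 1 and 0.028 without *Zic2* iso/iso replicate 3. Of its 4 probes 2 were above the background level, and they pointed in opposite directions. The dimmer of the pair was at 7.93, 7.74 and 7.70 in wildtype and 7.56, 7.72 and 7.71 in mutant pools, a difference of −0.12 (95% CI −0.29 to 0.048, adjusted p = 0.92 from limma). The probes of *Sufu* therefore gave no common direction.

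*Gli2* and *Gli3* encode the factors through which the signal first reaches the genome, GLI2 mainly as an activator and GLI3 mainly as a repressor when the ligand is absent. *Gli2* was at 11.04, 10.83 and 10.94 in the wildtype pools and at 10.73, 10.94 and 11.05 in the mutant pools. The mutant pools held both the lowest and the highest of the 6 values. The difference was −0.033 (95% CI −0.22 to 0.16, adjusted p = 0.99 from limma), and its dimmer probe gave −0.072 (95% CI −0.22 to 0.079, adjusted p = 0.96 from limma). *Gli3* was at 12.11, 11.91 and 11.88 in the wildtype pools and at 12.07, 11.99 and 12.05 in the mutant pools. All 3 mutant values lay inside the wildtype range. The difference was 0.070 (95% CI −0.092 to 0.23, adjusted p = 0.96 from limma), and it was 0.14 without wildtype replicate 1 and 0.025 without wildtype replicate 3. A dim *Gli3* probe near the background level had wildtype values of 7.72, 7.36 and 7.26 and mutant values of 7.58, 7.75 and 7.54, with a difference of 0.18 (95% CI −0.053 to 0.41). The array reads transcripts only, and the cutting of GLI3 to its repressor form is not visible in these data.

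**Figure D2:**
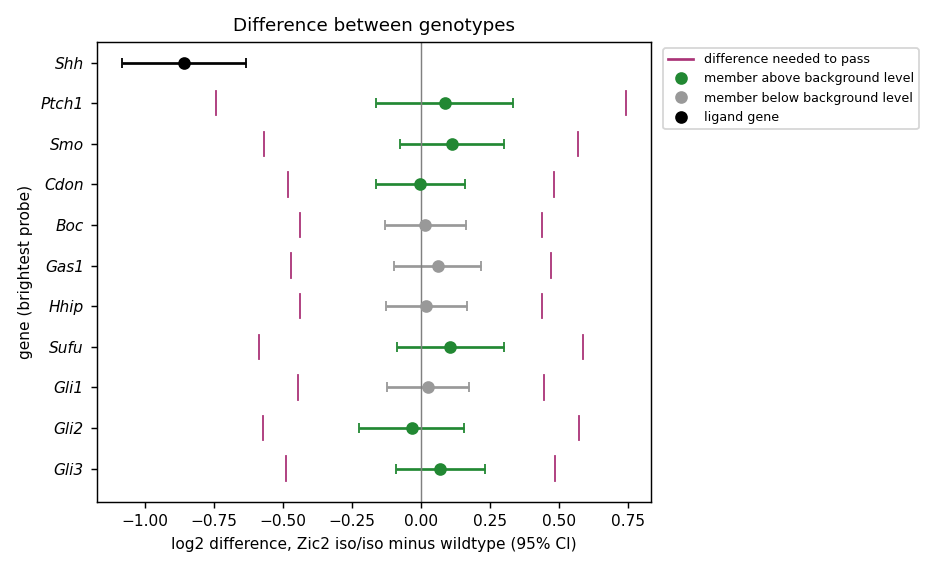
Log2 difference between Zic2 iso/iso and wildtype pools (horizontal axis) with its 95% CI for Shh (black) and the 10 receiving genes, green where the gene was above the background level in at least 1 genotype and grey where it was below it in both. Vertical ticks mark the difference that each gene would have needed to pass the test; all 10 intervals cross 0 and lie to the right of the −0.86 of Shh.

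The precision of these statements can be given for the 6 genes above the background level. Their 95% CIs had half-widths from 0.16 (*Cdon*) to 0.25 (*Ptch1*). A difference of 0.48 (*Cdon*) to 0.74 (*Ptch1*) would have been needed to pass the test, which at 20 calls asks for an unadjusted p of about 2.3e-05. The lowest CI bound among the 6 was −0.22 and the highest 0.33, so that changes of a doubling or a halving lay outside the interval of each. A change smaller than the difference needed for a gene was likely to be missed at this number of arrays. The background was left in the intensities, which makes the fold of a dim gene smaller than that of its transcript. With a normexp background correction the differences were 0.093 for *Ptch1*, 0.12 for *Smo*, 0.12 for *Sufu*, 0.071 for *Gli3*, −0.035 for *Gli2* and −0.0034 for *Cdon*, none past the test.

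**Figure D3:**
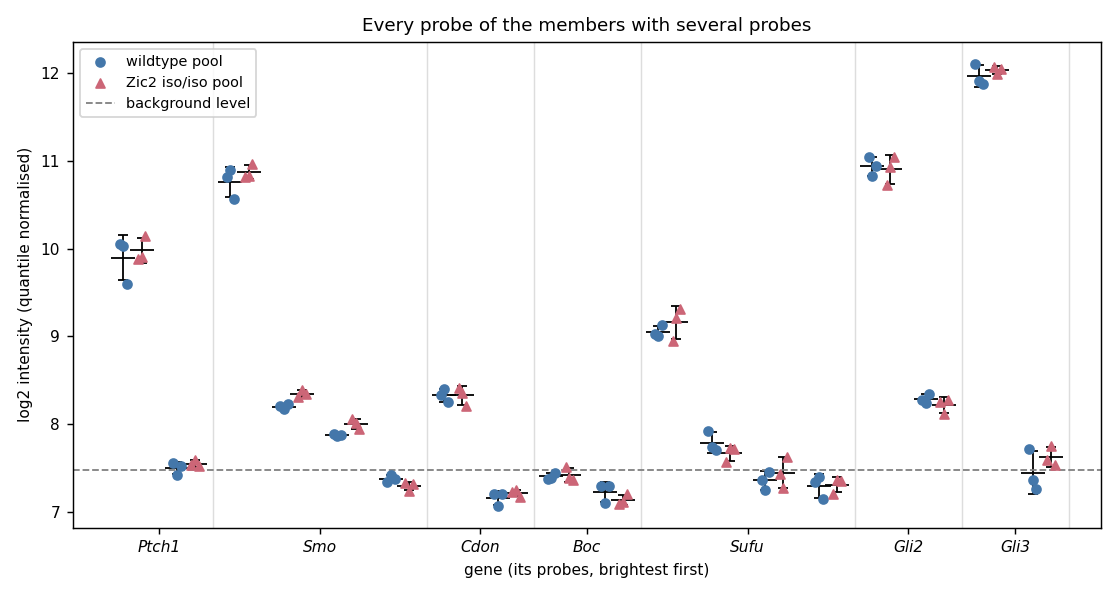
Quantile-normalised log2 intensity (vertical axis) of every probe of the 7 genes with several probes, brightest first within each gene, in wildtype pools (circles) and Zic2 iso/iso pools (triangles), with means, the SD of 3 pools as error bars and the background level as a dashed line. The 2 middle probes of Smo are the only ones above the line whose genotypes do not overlap, with the mutant pools higher, and the Sufu probes above the line differ in direction.

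The rest of the pathway was read from 5 groups of genes by role, written from general knowledge. Of 64 genes listed, 61 had a probe and 39 were above the background level. Only *Shh*, 1 of the 61, passed the test, against 0.0442% over all probes. The median difference of the 61 was −0.048, against 2.6e-04 over all probes. The pools lay apart with the mutant pools lower in 8 of the 61 genes and with the mutant pools higher in 2, against the 5.46% and 5.18% over all probes.

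Among 8 genes for the ligands and their release, 1 fell (*Shh*) and 7 did not pass, against 0.0442% called over all probes. *Ihh*, *Disp1* and *Dhh* were picked out after their values were seen. *Ihh*, which encodes Indian hedgehog, was at 7.87, 8.00 and 7.92 in wildtype and 7.85, 7.84 and 7.95 in mutant pools, a difference of −0.048 (95% CI −0.20 to 0.099). *Disp1*, which encodes the protein that releases the ligand from the cell, had a difference of −0.022 (95% CI −0.17 to 0.13). *Dhh* was below background, so that no change could be read for it. The group listed as other surface proteins held *Lrp2*, *Gpc3*, *Gpc4*, *Gpc6* and also *Mgrn1*, which encodes a ubiquitin ligase. Of these 5 genes none passed in limma, and 2 had an unadjusted p under 0.05, where over all probes 6.02% did. *Lrp2*, which encodes a large endocytic receptor, had the largest difference of these at 0.31 (95% CI 0.012 to 0.61, adjusted p = 0.82 from limma), with mutant values of 11.30, 10.74 and 11.29 and wildtype values of 10.95, 10.87 and 10.58 that overlapped. *Gpc3*, which encodes a membrane-anchored proteoglycan and was picked out after its values were seen, was the only gene of the group whose pools lay apart. It was at 12.99, 13.02 and 13.02 in wildtype and 13.27, 13.11 and 13.18 in mutant pools, a difference of 0.18 (95% CI 0.032 to 0.32, adjusted p = 0.75 from limma). *Lrp2* is also used by the visceral endoderm, and 5 of 6 markers of the yolk sac and visceral endoderm had positive differences, their summed linear intensity being 27057 to 39876 in mutant and 24733 to 33817 in wildtype pools. The part of that tissue in the value of *Lrp2* was not tested.

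Of 24 genes that act between SMO and the Gli factors at or near the cilium, 19 exceeded background. None passed in limma, with an unadjusted p under 0.05 in 3 of the 24, against 6.02% over all probes. Their median difference was −0.047, with 16 genes below 0 and 8 above. *Ift88*, which encodes a carrier protein of the cilium, had the largest difference, −0.24 (95% CI −0.39 to −0.082, adjusted p = 0.62 from limma), with wildtype values of 8.37, 8.31 and 8.42 above the mutant values of 8.02, 8.19 and 8.19. *Stk36* and *Evc*, picked out after their values were seen, also had mutant pools below all wildtype pools, with differences of −0.22 and −0.18. The kinase subunit genes *Prkaca* and *Prkacb* (−0.041 and −0.040) and *Gsk3b* (−0.052), whose products mark Gli factors for cutting, were also picked out after their values were seen and had overlapping pools.

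Of 17 genes known to be induced by the signal in the midline, somites and lateral plate, 8 exceeded background in at least 1 genotype. None passed in limma, with an unadjusted p under 0.05 in 5 of the 17, against 6.02% over all probes. *Nkx2-9*, a homeobox gene of the ventral neural tube, had the largest difference. It was at 8.00, 8.03 and 8.09 in wildtype and 7.62, 7.72 and 7.67 in mutant pools, which were all lower, a difference of −0.37 (95% CI −0.51 to −0.23, adjusted p = 0.11 from limma). *Foxc2* and *Nkx6-1*, chosen after their values were seen, had differences of −0.36 and −0.33 (adjusted p = 0.14 and 0.74 from limma), with mutant pools that lay apart for *Foxc2* and overlapped for *Nkx6-1*. *Foxf1*, a target gene of the lateral plate chosen in the same way, had a difference of 0.25 in the other direction (adjusted p = 0.77 from limma). The median of the group was −0.065, with 11 genes below 0 and 6 above. Background was exceeded in at least 1 genotype by 3 of 7 genes of the dorsal neural tube that the signal is known to keep back. The median of the 7 was 0.0047, the value of *Pax6*, whose probe was below background. None of the 7 passed in limma, and 1 of them had an unadjusted p under 0.05, against 6.02% over all probes. The largest difference of these was that of *Msx1*, at 0.21 (95% CI 0.044 to 0.38, adjusted p = 0.74 from limma), with overlapping pools.

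**Figure D4:**
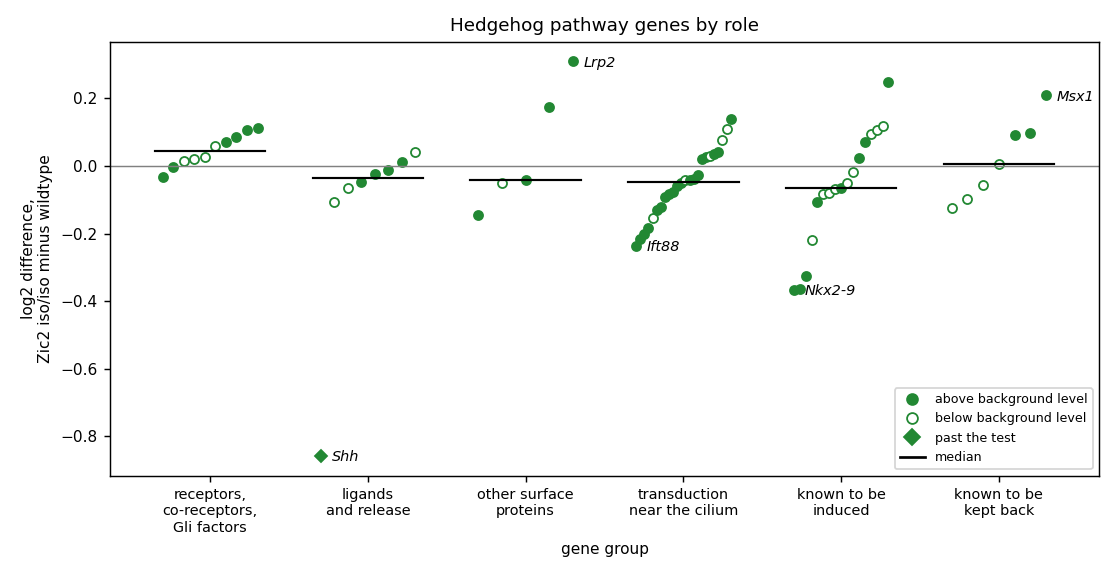
Log2 difference between Zic2 iso/iso and wildtype pools (vertical axis) of each gene of the Hedgehog pathway, by role (horizontal axis). Filled symbols are genes above the background level in at least 1 genotype, open symbols genes below it in both, the diamond is the only gene past the test, Shh at −0.86, and horizontal lines are group medians; the receiving genes lie between −0.033 and 0.11.

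The tissue make-up of the pools was checked with 8 lists of markers, of which 35 genes had a probe and 32 were above the background level. Background was exceeded in both genotypes by 3 of 5 neural plate markers, such as *Otx2*, but in neither by *Sox1* or *Hesx1*. It was exceeded in both by 3 of 4 gut endoderm markers, such as *Sox17*, but in neither by *Epcam*. All 4 trophoblast and decidua markers with a probe, such as *Prl2c2*, exceeded it in both. The summed linear intensity of trophoblast and decidua markers was 2877 to 3454 in mutant and 3012 to 3704 in wildtype pools. In that list 3 genes had differences above 0 and 1, *Prl8a2*, below 0 (−0.465, adjusted p = 0.91 from limma). *Prl8a2* varied among the pools of both genotypes, at 7.92, 9.20 and 9.27 in wildtype and 7.96, 8.64 and 8.39 in mutant pools 1 to 3. Summed intensities depend mostly on the brightest probes of a list. The summed intensity of 4 heart markers was 3285 to 6899 in mutant and 6919 to 8473 in wildtype pools, though each gene's pools overlapped. That of 4 markers of somites and presomitic mesoderm was 2722 to 3089 against 3218 to 3965, and that of 5 markers of the node, notochord and floor plate, *Shh* among them, 1254 to 1332 against 1681 to 1886. Within the latter list *Shh* and *Chrd* had differences of −0.86 and −0.52. *Foxa2*, *Nog* and *Noto* had differences of −0.11, −0.14 and 0.0018 and did not pass the test. For 3 primitive blood markers the summed intensity was 841 to 9280 in mutant and 3874 to 5773 in wildtype pools. The mutant pools differed among themselves in blood and heart markers. The globin gene *Hbb-bh1* was at 12.87, 10.75 and 9.04 in mutant pools 1 to 3 and at 11.55, 11.74 and 12.17 in wildtype pools. The heart actin gene *Actc1* was at 11.75, 12.15 and 10.83 in mutant and 12.36, 11.95 and 12.40 in wildtype pools. Mutant pool 3, the lowest for both, was the highest of the 6 for *Ptch1*, *Smo*, *Sufu* and *Gli2*. For *Gli2* it stood at 11.05 against 11.04 in wildtype pool 1. The same pool was the lowest of the 6 for *Cdon* and inside the wildtype range for *Gli3*. Without *Zic2* iso/iso replicate 3 the differences were 0.0031 for *Ptch1*, 0.068 for *Smo*, 0.028 for *Sufu* and −0.11 for *Gli2*. Those of *Gli3* and *Cdon* were 0.064 and 0.056, and none of these passed the test in limma. Of the 35 markers with a probe the test called 2, *Shh* and *Chrd* (−0.52, adjusted p = 0.011 from limma), against 0.0442% over all probes. The part of such differences in tissue or stage in the values of the receiving genes was not tested.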

How the data were processed

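RNA of 6 pools of whole embryos was hybridised to Illumina Mouse WG6 v2 arrays. Per the methods the authors normalised with VSN and tested with limma, but the deposited values are linear probe intensities, with a lowest value of 104 to 122 per array, neither background-subtracted nor scaled between arrays. After a floor of 1, log2 values were taken, quantile normalised and fitted with limma 3.58.1 in R 4.3.3 (lmFit and eBayes, no covariates, no filter on dim probes), with a threshold of 0.05 on the adjusted p. Gene symbols came from GEO's annotation of the array platform, updated through RefSeq gene identifiers: 34885 probes carried 1 symbol, 18 several and 10378 none.

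Named genes were the 10 genes, *Shh*, *Zic2*, and from each pathway list the genes past the test and the one with the largest difference above background. Any other pathway gene or marker in the text was picked with its values in view. The genes and lists were chosen with earlier results of these data known. The fit was tested on simulated data. Alternatives were other normalizations, normexp (offset 50), a rewritten variance stabilising normalisation, a dim probe filter, other variance priors, array weights, the replicate block, leaving out each pool, averaged probes and thresholds of 0.01 and 0.10. The number of arrays limits the precision. Probe sequences were not analysed here.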

Additional observations from a re-analysis of the deposited data

How the results depend on the processing

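None of the 10 genes passed the test in any of 16 alternative fits or at thresholds of 0.01 and 0.10. The smallest adjusted p among 156 values (*Gli1*, *Hhip*, *Boc* and *Gas1* are not in the fit of probes above the background level) was 0.77. *Smo*, *Sufu*, *Gli3* and *Gas1* kept a difference above 0 in every fit that held them. The fits were not independent, since all drew on 1 set of pools, from which some left a pool out. *Gas1* was below background, and a dimmer *Sufu* probe above background had a difference of −0.12. The sign turned in 17 of the 156 values, all of them from the other 6 genes. For *Gli2* the difference was 0.055 without normalization between arrays and 0.0058 with median centring. For *Cdon* it was 0.089 and 0.040 there, 0.012 with variance stabilising normalisation and 0.027 with the mean of a gene's probes, which gave −0.039 for *Boc*. When each pool was left out in turn, the difference ran from −0.064 to 0.16 for *Ptch1*, −0.018 to 0.062 for *Gli1*, −0.11 to 0.056 for *Gli2*, −0.0089 to 0.067 for *Hhip*, −0.029 to 0.046 for *Boc* and −0.046 to 0.056 for *Cdon*.

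Over all probes 20 passed, and 4 without normalization between arrays, 11 with median centring, 31 with an intensity trend and 34 at a threshold of 0.10. *Shh* no longer passed without normalization or with averaged probes, leaving 0 of the other pathway genes. The averaged value took in the dimmer *Shh* probe, whose own difference was −0.19. The cause of the lost calls was not tested. The replicate block gave 17 probes and changed no call among the 10 genes. Equal replicate numbers did not mark pools that deviated together (r of −0.13, −0.020 and −0.12 across probes above background), so they were not taken as pairs.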
